A study of Mus musculus with 6 samples.

Results

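A set of 41 macrophage genes was examined in mouse leukaemia arrays, 1 of which, Dnmt3b-KO replicate 3, stood apart from the rest. The genes were chosen by symbol, and many of them from their values on that array, so their levels there are given as a description without a test. Of the 41, 40 had an array row with exactly 1 gene symbol, among 30139 genes in all. Spp1 had no such row, so its expression was not analysed here, but it is counted in the promoter windows below.

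Macrophages carry out phagocytosis, and these genes cover that work from recognition to digestion: receptors for antibodies, complement and dying cells, enzymes that handle lipid, haem and bacterial walls, and surface proteins that mark macrophages of particular tissues. Macrophages of the splenic red pulp and of erythroblastic islands in the marrow recycle iron, and SPIC is a transcription factor of that kind. Lipid-associated macrophages in fatty or injured tissue carry GPNMB, TREM2 and lipid-handling enzymes.

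The arrays measured mouse acute myeloid leukaemia driven by MLL-AF9, a fusion oncogene that all 6 samples carry. There were 3 arrays of leukaemia from littermate controls and 3 of leukaemia lacking Dnmt3b (Dnmt3b-KO), the gene of a DNA methyltransferase. Leukaemia cells were harvested from the marrow of recipient mice when disease had reached its end stage and were sorted by flow cytometry. The sorting markers, the ages, the sexes and the way Dnmt3b was deleted are not given in the sources used here, and nothing in the labels ties an array to its own mouse.

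Values are on the deposited log2 scale, which reaches 19.59 and so exceeds the 16 of a 16-bit scanner. Differences are therefore given in log2 units as deposited and not as folds. Array medians over all genes ran from 4.75 to 4.85. Each array has 23 rows of background control probes, and the highest of them measured 4.96 to 5.62. A value that does not exceed the highest control row of its own array is called not above background. Dnmt3b-KO replicate 3 stood apart: its correlation across genes with the other 5 arrays was 0.981 to 0.982, against 0.998 to 0.999 among those 5. It also carried Y-linked transcripts that the others lacked, such as Eif2s3y at 8.26 against at most 4.54, while Xist was on all 6 arrays (15.44 there and at most 16.79 elsewhere). The targeted gene, Dnmt3b, stood at 6.79 ± 0.04 (SD, n = 3) on control arrays, at 6.47 and 6.63 on the first pair of Dnmt3b-KO arrays and at 5.96 on replicate 3; without replicate 3 the difference was not called (limma adjusted p = 0.16). Transcripts of the leukaemia cells were abundant on all arrays; Mpo, the myeloperoxidase of myeloid progenitors, measured 17.36 to 17.49 on the other 5 arrays and 16.54 on replicate 3. In sorted bulk RNA, more cells of a type and more RNA per cell cannot be told apart.

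Promoter windows of RefSeq genes (GRCm38.p6), from 250 bases before to 50 bases after the transcript start, were available for 31 of the 41 genes. Those below belong to genes with some of the greatest differences on Dnmt3b-KO replicate 3, and to Fcgr4. Fcgr4 is the one gene of the set that limma called higher in the other Dnmt3b-KO arrays. They are read 5′ to 3′ on the strand of the gene. Capitals mark matches, on either strand, to short motifs bound by macrophage transcription factors: GAGGAAG (PU.1), CATGTG (the M-box) and CACGTG (the E-box) of the MITF and TFE factors, TGANTCA (AP-1) and TTNNGCAA (C/EBP). The windows lie at chr6:49036268-49036567 (Gpnmb), chr17:75435655-75435954 (Rasgrp3), chr2:14229164-14229463 (Mrc1), chr6:65144681-65144980 (Hpgds), chr3:96293920-96294219 (Fcgr1), chr1:171018676-171018975 (Fcgr4), chr6:48841233-48841532 (Tmem176a) and chr6:48841325-48841624 (Tmem176b). Hpgds, Fcgr1 and Tmem176b are on the minus strand and the others on the plus strand.
Gpnmb: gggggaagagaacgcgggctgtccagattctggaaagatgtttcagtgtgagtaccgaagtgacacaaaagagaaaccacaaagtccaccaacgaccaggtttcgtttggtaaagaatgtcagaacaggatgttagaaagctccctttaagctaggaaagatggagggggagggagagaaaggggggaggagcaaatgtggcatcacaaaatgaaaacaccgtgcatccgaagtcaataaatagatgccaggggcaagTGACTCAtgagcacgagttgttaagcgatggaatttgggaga
Rasgrp3: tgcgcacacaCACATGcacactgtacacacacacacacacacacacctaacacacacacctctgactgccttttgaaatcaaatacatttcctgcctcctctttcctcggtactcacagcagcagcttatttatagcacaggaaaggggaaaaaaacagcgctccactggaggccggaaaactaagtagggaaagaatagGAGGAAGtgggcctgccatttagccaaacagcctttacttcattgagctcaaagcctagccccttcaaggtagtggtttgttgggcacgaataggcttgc
Mrc1: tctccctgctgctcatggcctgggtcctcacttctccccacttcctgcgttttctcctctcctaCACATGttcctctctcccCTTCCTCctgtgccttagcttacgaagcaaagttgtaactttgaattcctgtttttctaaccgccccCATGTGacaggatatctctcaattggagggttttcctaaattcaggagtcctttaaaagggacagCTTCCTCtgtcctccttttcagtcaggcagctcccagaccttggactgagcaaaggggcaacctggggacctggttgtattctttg
Hpgds: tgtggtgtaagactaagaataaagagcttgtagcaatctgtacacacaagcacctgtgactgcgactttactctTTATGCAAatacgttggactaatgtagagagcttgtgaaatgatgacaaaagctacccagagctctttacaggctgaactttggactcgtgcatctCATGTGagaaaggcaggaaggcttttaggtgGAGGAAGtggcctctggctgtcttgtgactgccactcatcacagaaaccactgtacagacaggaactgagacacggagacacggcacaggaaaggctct
Fcgr1: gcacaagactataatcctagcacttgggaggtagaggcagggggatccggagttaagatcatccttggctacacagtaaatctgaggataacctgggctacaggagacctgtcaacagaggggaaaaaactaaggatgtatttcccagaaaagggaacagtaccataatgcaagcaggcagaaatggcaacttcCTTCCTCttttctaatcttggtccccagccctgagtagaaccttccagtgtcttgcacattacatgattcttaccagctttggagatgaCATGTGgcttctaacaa
Fcgr4: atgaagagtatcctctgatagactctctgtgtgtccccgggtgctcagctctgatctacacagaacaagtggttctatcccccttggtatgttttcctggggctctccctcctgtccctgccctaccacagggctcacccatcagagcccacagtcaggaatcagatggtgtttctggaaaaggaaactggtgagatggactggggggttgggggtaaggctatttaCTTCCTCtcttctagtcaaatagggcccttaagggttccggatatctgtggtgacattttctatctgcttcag
Tmem176a: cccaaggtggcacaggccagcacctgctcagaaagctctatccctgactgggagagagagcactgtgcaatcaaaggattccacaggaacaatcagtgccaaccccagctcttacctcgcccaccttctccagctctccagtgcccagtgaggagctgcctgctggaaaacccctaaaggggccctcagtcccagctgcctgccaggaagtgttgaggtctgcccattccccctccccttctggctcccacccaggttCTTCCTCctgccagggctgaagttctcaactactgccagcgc
Tmem176b: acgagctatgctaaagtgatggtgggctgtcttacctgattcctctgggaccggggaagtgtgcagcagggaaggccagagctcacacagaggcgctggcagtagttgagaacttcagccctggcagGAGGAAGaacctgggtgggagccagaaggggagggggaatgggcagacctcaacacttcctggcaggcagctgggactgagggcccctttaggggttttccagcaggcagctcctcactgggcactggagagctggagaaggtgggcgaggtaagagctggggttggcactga

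Tmem176a and Tmem176b are neighbours read in opposite directions, and the 2 windows shown share 208 bases, so the single PU.1 match in that stretch is counted for both genes. In Rasgrp3 and Hpgds the PU.1 match reads in the direction of the gene, beginning 50 and 49 bases before the start. Mrc1 has 2 PU.1 matches, both against the direction of the gene, and 2 M-box matches. Gpnmb has none of the PU.1 letters in this window and 1 AP-1 match. Of the 31 genes, 15 (48.4%) had a PU.1 match in at least 1 window, against 15.4% of 27025 genes with a window in the same table. An M-box match was found in 13 (41.9%, against 15.9%), C/EBP in 7 (22.6%, against 12.2%), AP-1 in 4 (12.9%, against 8.97%) and the E-box in 1 (3.23%, against 8.09%). Counted over windows rather than genes, 18 of 43 (41.9%) held the PU.1 letters, against 13.6% of 32851. Spp1, which has no expression value here, is among the 31 genes but in neither of the 2 groups that follow. Among genes higher by more than 1 on Dnmt3b-KO replicate 3, 10 of 19 had a PU.1 match and 11 of 19 an M-box match; among those within 1 the numbers were 4 of 11 and 2 of 11. Read on the strand of the gene alone, PU.1 letters were in 3 of 19 and 2 of 11, so that contrast depends on counting both strands, and M-box letters in 5 of 19 and 1 of 11. These shares were not tested, all genes include noncoding ones, and a match is a stretch of letters and not a shown binding site.

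**Figure D1:**
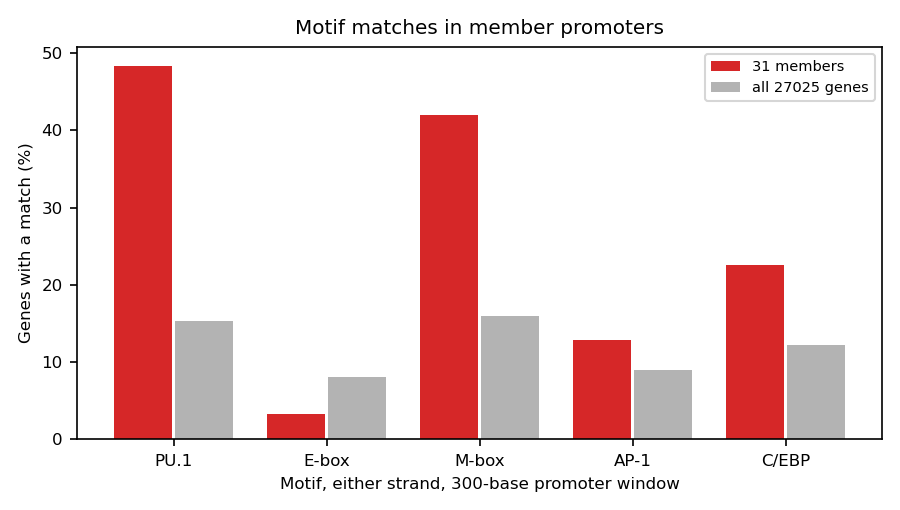
Share of genes (y axis, %) with at least 1 match to each motif (x axis, either strand) in their 300-base promoter windows, for 31 of the macrophage genes (red bars) and all 27025 genes with a window (grey bars). The PU.1 bars stand at 48.4% and 15.4%, and the M-box bars at 41.9% and 15.9%.

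On Dnmt3b-KO replicate 3, 25 of the 40 measured genes were higher than the mean of Dnmt3b-KO replicates 1 and 2 by more than 1, which 4.03% of all genes were. One, Vcam1, was lower by more than 1, against 2.94% of all genes, and 14 lay within 1. The median difference was 2.24, against 0.02 over all genes. All 25 also exceeded the highest of the other 5 arrays by more than 1 (3.06% of all genes did), and Vcam1 lay below the lowest by more than 1 (1.59%). Because these values chose many of the genes, nothing is read from the shares. In 12 of the 25 the gene was not above background on any of the other 5 arrays. For these only a bound over background can be given, and none for Ms4a7, which was not above background on replicate 3 either. With background in place of lower values, 21 of the 40 still differed by more than 1. Nearest to the limit of 1 were Ms4a7 at 1.29, Fcgr4 at 1.29 and, on the other side, Fcgr3 at 0.81.

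**Figure D2:**
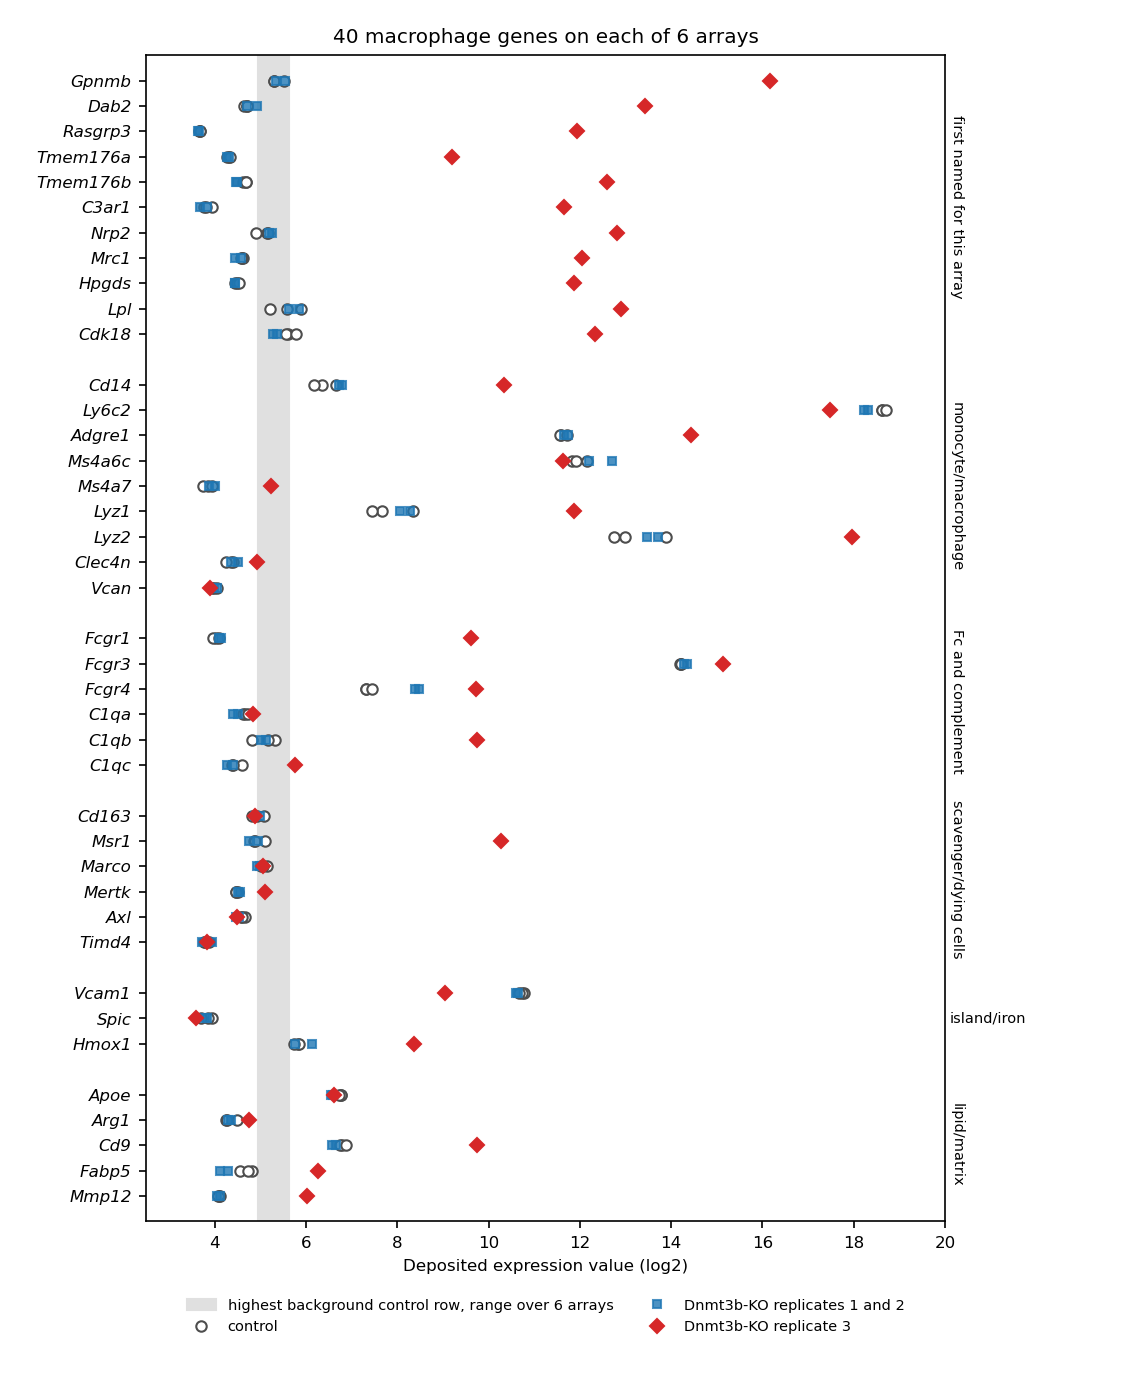
Deposited log2 value (x axis) of 40 macrophage genes (rows, grouped by role) on 3 control arrays (open circles), Dnmt3b-KO replicates 1 and 2 (blue squares) and Dnmt3b-KO replicate 3 (red diamonds); the grey band is the range of the highest background control row, 4.96 to 5.62. The red diamond lies to the right of all other symbols by more than 1 for 25 genes, and the other symbols of a gene mostly fall on each other.

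The genes first named for this array encode proteins of uptake, signalling and lipid handling. Gpnmb, a membrane glycoprotein of macrophages and pigment cells, measured 5.30, 5.30 and 5.51 on control arrays, 5.55 and 5.35 on Dnmt3b-KO replicates 1 and 2, and 16.16 on replicate 3. The first 5 values sit at the level of the background controls, and the last is 10.71 above replicates 1 and 2, the greatest difference of all 30139 genes. Dab2, an adaptor of endocytosis, measured 4.64, 4.71 and 4.72 in control, 4.71 and 4.92 in replicates 1 and 2, and 13.43 in replicate 3, a difference of at least 8.03 over background. Rasgrp3, which activates Ras proteins, was flat at 3.64 to 3.67 on 5 arrays and measured 11.94 on replicate 3, at least 6.55 over background. Gpnmb keeps the greatest difference when background replaces lower values, whereas Lgmn, a gene outside the 41 at 8.07 over background, then lies above Dab2 and Rasgrp3.

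Tmem176b, a membrane protein gene, measured 4.47 to 4.69 on 5 arrays and 12.60 on replicate 3; its neighbour Tmem176a measured 4.26 to 4.33 and 9.21. Both genes of the shared promoter were thus not above background on 5 arrays and well above it on 1. C3ar1, a receptor for a fragment of complement C3, went from 3.68 to 3.94 on 5 arrays to 11.65 on replicate 3, and Nrp2, a co-receptor for semaphorins, from 4.90 to 5.26 to 12.81. Mrc1, the mannose receptor, measured 4.43 to 4.63 on 5 arrays and 12.05 on replicate 3. The enzyme genes showed the same shape: Hpgds, which makes prostaglandin D, measured 4.44 to 4.54 and then 11.87, and Lpl, lipoprotein lipase, 5.21 to 5.89 and then 12.91. Cdk18, a kinase gene, measured 5.27 to 5.79 on 5 arrays and 12.34 on replicate 3. Among the 10 genes that exceeded the other 5 arrays by most, 8 belong to the set, and among the top 100 there were 14. Values on this array chose many of the genes, so nothing is read from these counts.

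General monocyte and macrophage genes divided. Lyz2, the lysozyme of myeloid cells, was already abundant at 12.99, 12.74 and 13.89 in control and 13.72 and 13.47 in replicates 1 and 2, and measured 17.97 in replicate 3. Its neighbour Lyz1, a near copy whose probes may share signal with Lyz2, measured 7.44 to 8.35 and then 11.86. Cd14, a co-receptor for bacterial lipopolysaccharide, measured 6.17 to 6.79 on 5 arrays and 10.34 on replicate 3, and Adgre1, the F4/80 antigen of mature macrophages, 11.56 to 11.74 and 14.44. Ms4a7, a macrophage membrane protein gene, measured 3.74 to 4.01 on 5 arrays and 5.23 on replicate 3, where it was still not above background. The remaining 4 of the 9 lay within 1. Ly6c2, a surface marker of inflammatory monocytes, measured 18.63, 18.61 and 18.71 in control, 18.32 and 18.23 in replicates 1 and 2, and 17.49 in replicate 3, the lowest of the 6. Ms4a6c, also of monocytes, had its lowest value on replicate 3 as well, 11.63 against 11.84 to 12.70. Vcan (versican) and Clec4n (a receptor for fungal sugars) were not above background on any array.

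Receptors for antibodies and subunits of complement C1q were unequal too. Fcgr1, the high-affinity receptor for IgG, measured 3.96 to 4.14 on 5 arrays and 9.62 on replicate 3. Fcgr3, a low-affinity receptor, was high throughout, at 14.20 to 14.35 on 5 arrays and 15.13 on replicate 3. The 3 C1q chains are neighbours in the genome and together form 1 protein, yet they differed by unlike amounts on replicate 3. C1qb measured 4.81 to 5.31 on 5 arrays and 9.75 on replicate 3. C1qc measured 4.26 to 4.61 and then 5.75, just above background, whereas C1qa measured 4.40 to 4.73 and then 4.84, not above background. These are single array rows of each gene, so no second row could be set beside them.

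Of 6 scavenger receptors and receptors for dying cells, only Msr1, the class A scavenger receptor, was higher on replicate 3 by more than 1: it measured 4.75 to 5.11 on 5 arrays and 10.28 there. Cd163, which takes up haemoglobin bound to haptoglobin, measured 4.89 on replicate 3 and 4.81 to 5.07 elsewhere. Marco, a scavenger receptor for particles, measured 5.06 and 4.92 to 5.15, and Timd4, which binds phosphatidylserine on dying cells, 3.83 and 3.73 to 3.95. The receptor kinases Axl and Mertk measured 4.49 and 5.10 on replicate 3, against at most 4.66 and 4.55 elsewhere. All 5 were not above background on replicate 3.

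The set holds 3 genes known from red pulp and erythroblastic island macrophages. Hmox1, which breaks down haem, measured 5.73 to 6.13 on 5 arrays and 8.36 on replicate 3. Spic, the transcription factor of iron-recycling macrophages, was not above background on any array and measured 3.60 on replicate 3. Vcam1, an adhesion molecule of island macrophages, measured 10.77, 10.74 and 10.66 in control, 10.64 and 10.61 in replicates 1 and 2, and 9.04 in replicate 3. It is the one gene of the set that was lower there by more than 1.

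Among genes of lipid-laden and matrix-degrading macrophages, Cd9, a tetraspanin, measured 6.58 to 6.88 on 5 arrays and 9.74 on replicate 3. Fabp5, a fatty acid carrier, measured 4.11 to 4.82 and then 6.27, and Mmp12, the macrophage elastase, 4.05 to 4.11 and then 6.02. The last 2 cleared background on replicate 3 by less than 1. Apoe, apolipoprotein E, did not share the pattern: it measured 6.73 to 6.77 in control, 6.60 and 6.54 in replicates 1 and 2, and 6.62 in replicate 3. Arg1, arginase, was not above background on any array.

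The comparison that leaves out the array that chose the genes asks whether these macrophage genes also differed between Dnmt3b-KO replicates 1 and 2 and control. One of the 40 was called higher, Fcgr4, and 1 lower, Ly6c2 (limma, Benjamini-Hochberg adjustment over 30139 genes, threshold 0.05). Over all genes, 0.939% were called higher, 0.75% lower and 1.69% in all. The other 38 of the 40 were not called, with differences of -0.50 to 0.48 and limma adjusted p from 0.079 to 0.99. The median difference was -0.01 in the 40 genes and -0.01 over all genes, and 31 of the 40 differed by less than 0.2. Many of these genes lacked signal on both sides of the comparison. Of the 25 higher on replicate 3, 12 were not above background on any array compared, and so were 9 of the 14 within 1. For such genes a small difference cannot show whether expression differed.

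Fcgr4, an activating receptor for IgG antibodies, measured 7.31, 7.32 and 7.45 on control arrays, against 8.40 and 8.47 on Dnmt3b-KO replicates 1 and 2. The Dnmt3b-KO values lie close together and clear every control, with a difference of 1.07 ± 0.07 (SE; limma adjusted p = 0.0047). On replicate 3 Fcgr4 measured 9.73, above every control and 1.29 above replicates 1 and 2; as many macrophage genes were higher on that array, the value adds no separate support. Leaving out Dnmt3b-KO replicate 1 or 2 ended the call (limma adjusted p = 0.061 and 0.057), with differences of 1.11 and 1.04. Fcgr3, beside Fcgr4 in the genome, differed by 0.11 ± 0.05 (SE; limma adjusted p = 0.40).

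Ly6c2 fell by 0.38 ± 0.06 (SE; limma adjusted p = 0.0496), and no Dnmt3b-KO value reached a control value. The call is at the edge of the threshold and ended when any 1 of the 5 arrays was left out (adjusted p from 0.10 to 0.21). Without the call, Fabp5 came nearest among the others, with a difference of -0.50 ± 0.10 (SE; limma adjusted p = 0.079) at levels not above background.

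The 11 genes first named for Dnmt3b-KO replicate 3 differed between replicates 1 and 2 and control by -0.34 to 0.17, and none was called (limma adjusted p from 0.12 to 0.96). Among them Dab2, Rasgrp3, Tmem176a, Tmem176b, C3ar1, Mrc1 and Hpgds were not above background on any array compared. For these the comparison cannot show whether expression differed. Gpnmb differed by 0.08 ± 0.10 (SE; limma adjusted p = 0.80) and Rasgrp3 by -0.02 ± 0.05 (limma adjusted p = 0.93). Of the 25 genes higher on replicate 3, 12 had differences above 0 and 13 below, and Fcgr4 was the one called. Both Dnmt3b-KO arrays lay above every control for 6 of the 40 genes and below every control for 12; over all genes the shares were 15.1% and 17.4%.

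**Figure D3:**
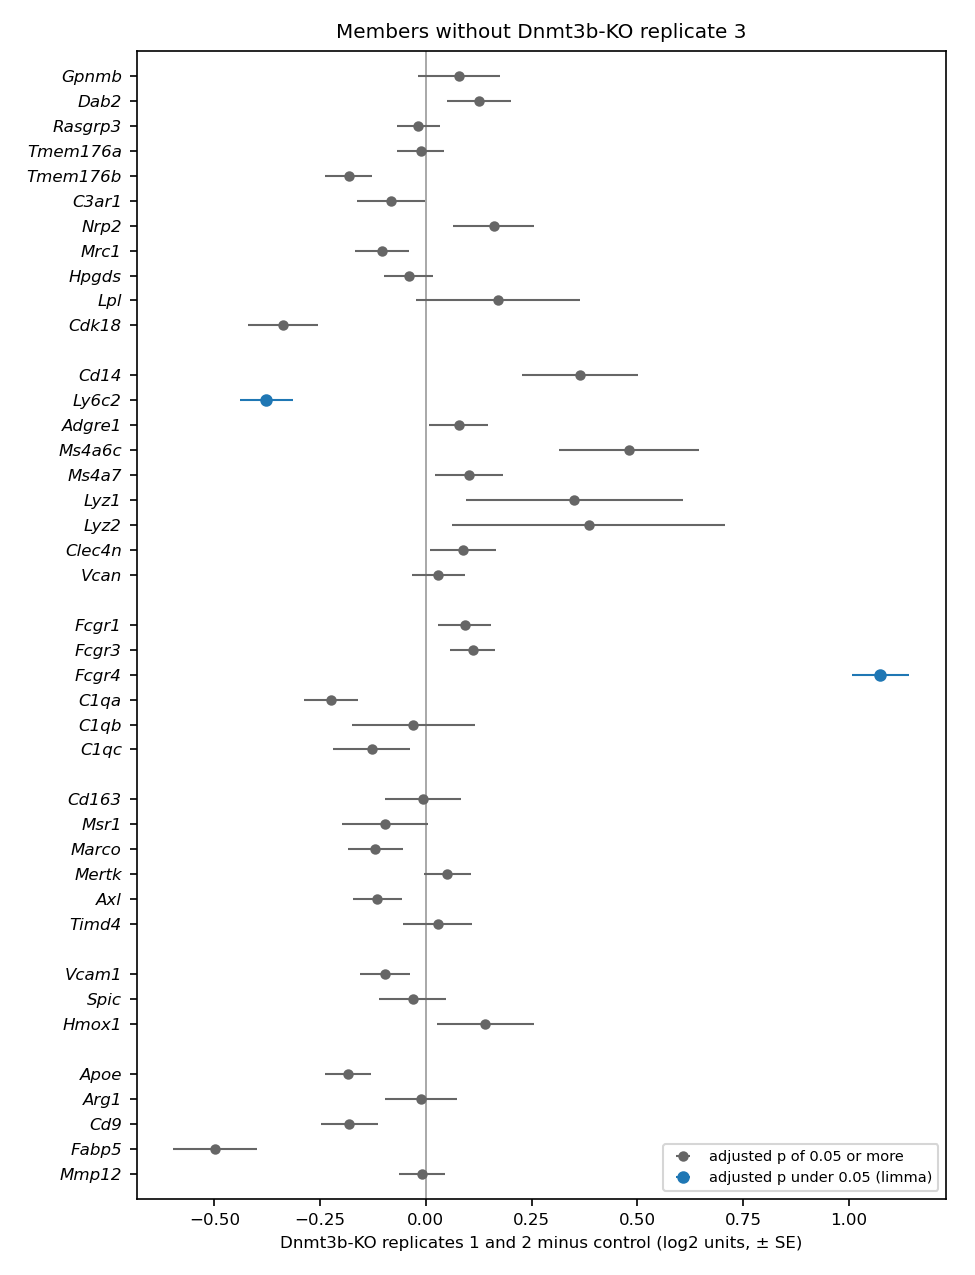
Difference between Dnmt3b-KO replicates 1 and 2 and control (x axis, log2 units, bars ± SE from limma) for the 40 genes (rows), with the 2 genes called at an adjusted p under 0.05 in blue. Fcgr4 stands at 1.07 and Ly6c2 at -0.38, and the others lie between -0.50 and 0.48.

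Over all 6 arrays, limma called 0 of the 40 genes and 0% of all genes. The lowest adjusted p in the set was 0.64, for Fcgr4, and 3 of the 40 had an unadjusted p under 0.05, against 6.37% of all genes. This fit holds the array that chose the genes and is given as a description. With array weights, which limma estimates from the spread of each array, Fcgr4 was called in this fit too.

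Lists of textbook markers were then used to describe which kinds of macrophage and of other cells the genes higher on Dnmt3b-KO replicate 3 are known from. The lists were chosen with earlier results of these data known, so they are not independent of that array. They share genes with each other and with the 41, and there is 1 array, so counts are given without a test. Over all genes, 4.03% were higher and 2.94% lower by more than 1. Of 16 measured core macrophage genes 11 were higher by more than 1, with a median of 3.17, and 7 of these 11 are outside the 41. Ctss, a lysosomal protease, measured 7.92 to 8.73 on 5 arrays and 13.99 on replicate 3. Csf1r, the receptor for the macrophage growth factor, measured 7.90 to 8.64 and then 12.97, and Cd68, a lysosomal membrane protein, 9.82 to 10.53 and then 14.60. Aif1, Fcer1g and Tyrobp, which also belong to that list, differed by 0.23, 0.19 and -0.12.

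Of 18 lipid-associated macrophage genes 13 were higher by more than 1, with a median of 2.24, and 8 of these 13 are outside the 41. Ctsl, a lysosomal protease, measured 7.29 to 7.56 on 5 arrays and 14.20 on replicate 3. Cd36, a receptor for oxidised lipid, measured 3.83 to 4.12 and then 9.50, and Trem2, a lipid-sensing receptor, 3.92 to 4.08 and then 7.62. Apoe, Plin2, Itgax, Cd63 and Fabp4 of the same list lay within 1, and of these Itgax and Fabp4 were not above background on any array.

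Of 14 inflammatory activation genes 7 were higher by more than 1, with a median of 0.97. Tnf, the cytokine, measured 7.47 to 7.92 on 5 arrays and 11.80 on replicate 3, Cxcl2, a chemokine, 5.50 to 6.19 and 8.98, and Cd80, a co-stimulatory molecule, 5.24 to 5.75 and 8.63. Nos2, Il1b and Il12b were not above background on any array. The count was 4 when genes below the median level were removed and also 4 with a limit of 1.5.

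Of 14 perivascular and interstitial macrophage genes 6 passed the limit upwards. Igf1, an insulin-like growth factor, stood at 8.86 against at most 4.28. Lyve1 and Folr2, markers of that kind of macrophage, were not above background on any array, and F13a1 was lower at 11.81 against 12.80 to 13.93. Pf4, which is also a platelet gene, measured 10.22 against at most 3.97. The platelet genes Ppbp and Itga2b were not above background on any array.

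Of 16 red pulp and erythroblastic island genes 4 were higher by more than 1: Siglec1, Slc11a1, Adgre1 and Hmox1. Siglec1, a sialic acid receptor of resident macrophages, measured 4.14 to 4.23 on 5 arrays and 8.18 on replicate 3. Slc11a1, a metal transporter of phagosomes, measured 4.93 to 5.05 and then 8.88. Slc40a1, the iron exporter ferroportin, measured 8.84 to 9.19 and then 9.42. Of the 16, 7 (Spic, Cd163, Timd4, Axl, Mertk, Cd5l and Vsig4) were not above background on any array, and the median was 0.02.

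Against the 4.03% of all genes that were higher by more than 1, none of 10 Kupffer cell, 8 alveolar and 8 peritoneal macrophage genes was; lists of this length cannot set such a count apart from that share. Of 13 genes of alternative activation 2 were, Mrc1 and Tgm2, and 2 were lower by more than 1, Clec7a and Mgl2. Arg1 and Retnla, which define that state in mouse, were not above background on any array. Of 10 osteoclast genes 3 were higher by more than 1, including Tnfrsf11a at 7.86 against at most 4.44, while Ctsk and Calcr were not above background on any array. Microglia had 2 of 8 (P2ry12 and Gpr34), and P2ry12 was not above background even on replicate 3. At 5.39, 5.40 and 5.61, Tgm2, Gpr34 and the osteoclast gene Dcstamp cleared the highest control row of that array (5.34) by little.

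Classical monocyte genes went the other way on that array: 5 of 9 were lower by more than 1, 1 was higher, and the median was -1.04. Of all genes, 2.94% were lower by more than 1. Plac8 measured 12.38 against 14.22 to 14.48, and Fn1, fibronectin, 7.39 against 8.09 to 9.74. S100a4, a calcium-binding protein gene, was the exception at 8.32 against at most 4.52. Leukaemia progenitor genes were lower in 5 of 11, with a median of -0.97 and none higher by more than 1. Kit measured 9.71 against 11.02 to 11.42, and Meis1 10.21 against 11.34 to 12.04. The part of these shifts in the macrophage values was not tested.

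Lists of lymphoid, erythroid, dendritic and stromal cells were counted in the same way. None of 6 T cell, 7 NK cell, 6 erythroid and 11 stromal and endothelial genes was higher by more than 1. Over all genes 4.03% were, and lists of this length cannot set such a count apart from that share. Lower by more than 1 were 2 stromal and endothelial genes (Pecam1 at -1.97 and Pdgfrb at -1.51), 1 NK cell gene (Nkg7 at -1.50) and 1 of 7 B cell genes (Cd79b at -1.51). One gene each was higher among 13 dendritic cell (Cd209a), 7 B cell (Ighm), 10 neutrophil (Mmp9) and 6 platelet genes (Pf4). Of the neutrophil genes 4 of 10 were lower by more than 1, and so were 4 of 10 genes of mast cells, basophils and eosinophils, of which none was higher. In the latter list 5 of 10 were already called lower in replicates 1 and 2 against control (limma, adjusted p under 0.05). Cpa3, Prg2 and Hdc were among the 4 and among the 5, whereas Mcpt8 of the 4 was not called. All 6 T cell genes were not above background on any array, and so were 9 of 13 dendritic cell genes, including the class II genes H2-Aa and H2-Eb1. A further class II gene, H2-Ab1, was above background on all 6 arrays, at 7.41 to 7.60 on 5 arrays and 6.83 on replicate 3. Mean levels over the list were 11.94 on replicate 3 and 8.92 to 9.24 on the other 5 arrays for core macrophage genes, 10.10 and 7.13 to 7.23 for lipid-associated genes, and 12.12 and 13.12 to 13.28 for leukaemia progenitor genes. Dnmt3b-KO replicate 3 held higher core and lipid-associated macrophage transcripts together with abundant leukaemia transcripts. Inflammatory and perivascular genes rose too, with 7 of 14 and 6 of 14 higher by more than 1. With background in place of lower values, Cd86, Cd40 and Ccl5 of the inflammatory list and Stab1 of the perivascular list differed by less than 1. So did Fabp5 and Mmp12 of the lipid-associated list. In the inflammatory and perivascular lists 7 and 6 genes were not above background on any array, against 2 each in the core and lipid-associated lists. Spic, Cd163, Timd4, Marco, Arg1 and Axl lacked signal above background on replicate 3. Marco aside, they lacked it on the other 5 arrays as well. No cell type is assigned to replicate 3.

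**Figure D4:**
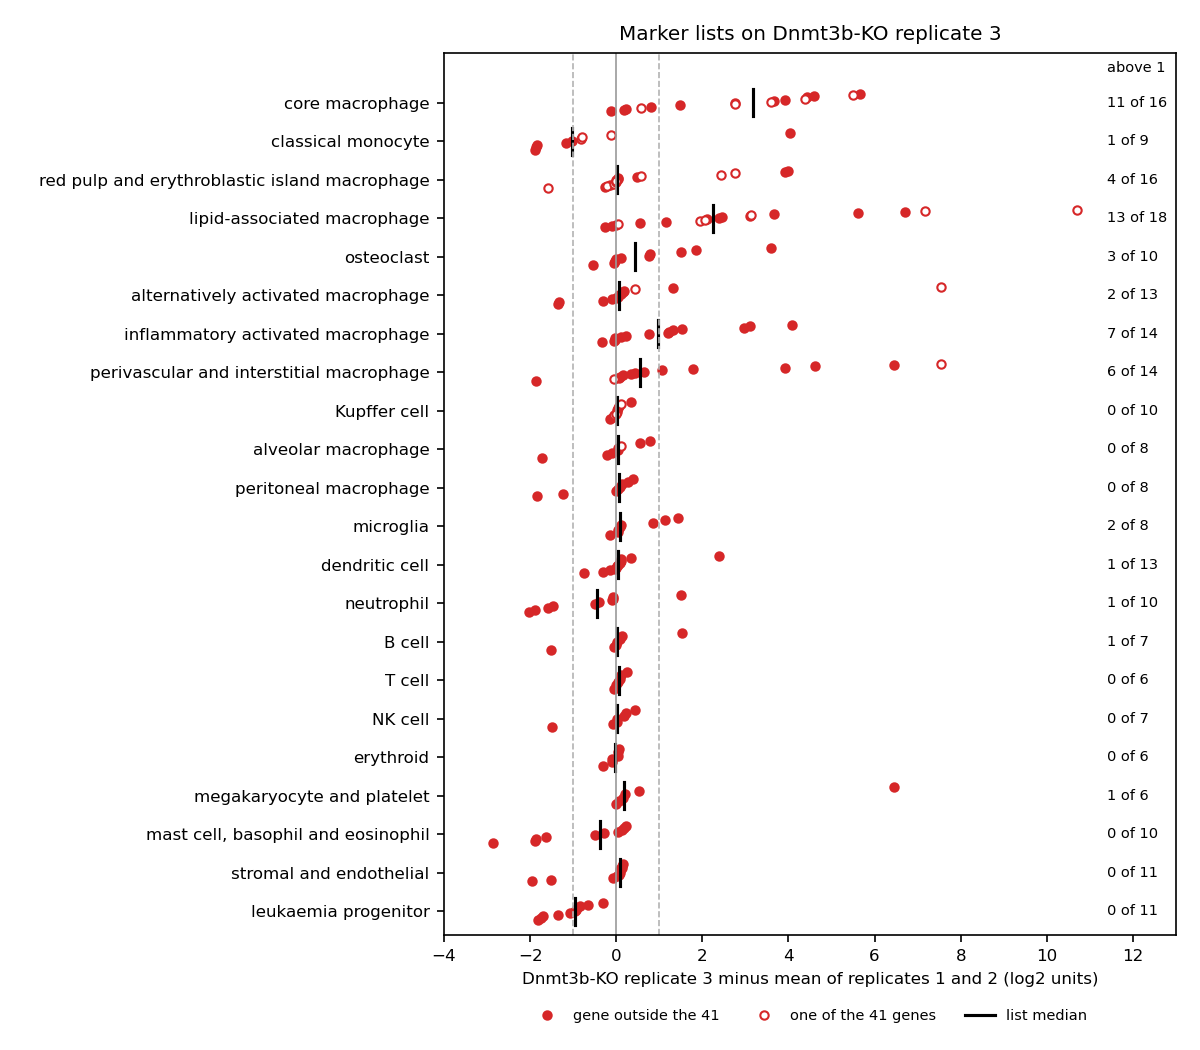
Difference of Dnmt3b-KO replicate 3 from the mean of replicates 1 and 2 (x axis, log2 units) for each gene (points; open where the gene is one of the 41) of 22 marker lists (rows), with the list median as a bar, dashed lines at -1 and 1, and the count above 1 at the right. The medians of core (11 of 16 above 1) and lipid-associated (13 of 18) macrophage genes lie furthest right, at 3.17 and 2.24, and the classical monocyte and leukaemia progenitor medians lie at -1.04 and -0.97.

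Genes with the same shape were found by 2 rules, the excess of Dnmt3b-KO replicate 3 over the highest of the other 5 arrays and the Euclidean distance from Gpnmb over 6 arrays, with each gene centred on its mean over those 5. The 5 genes nearest Gpnmb were Dab2, Rasgrp3, Lgmn, Plau and Tmem176b, of which only Lgmn and Plau are outside the 41; they also had the greatest excess among genes outside the set. Lgmn, legumain, a lysosomal protease, measured 5.16 to 5.47 on 5 arrays and 13.57 on replicate 3. Plau, the urokinase plasminogen activator, measured 5.10 to 5.39 and then 13.37. Next by excess were Anpep, an aminopeptidase of the cell surface, at 10.52 against at most 3.60, Ifi207 at 12.85 against at most 6.07, and Alcam, an adhesion molecule, at 11.54 against at most 4.79. Lilr4b, Rgs1, Qpct, Ctsl and Lamc1 completed the 10 genes, with excesses of 6.47 to 6.72.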

How the data were processed

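RNA of 6 sorted leukaemia samples (3 control, 3 Dnmt3b-KO) was measured on Affymetrix mouse transcriptome arrays. The authors deposited log2 values, and RMA is the tool that the submitters' processing notes name, without its version. The values exceed 16, so a later step that is not stated changed the scale; whether genes were centred was not stated either. Of 72688 rows, 6732 are array controls; 30604 rows had exactly 1 gene symbol in an older platform table and 2146 had several, which were not named. Symbols of 819 rows were updated by gene identifier. Each gene kept its row of highest mean, giving 30139 genes with 29817 distinct sets of values; none of the 40 measured genes shares its values with another gene.

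Dnmt3b-KO replicates 1 and 2 were set against control with lmFit and eBayes of limma 3.58.1 (R 4.3.3), at a Benjamini-Hochberg adjusted p of 0.05 over all genes. Dnmt3b-KO replicate 3 was described as its difference from the mean of replicates 1 and 2. The fit was tested on simulated data of 30139 genes, where it recovered 43.3%, 70.1% and 97.0% of genes changed by 0.5, 1 and 2. It also called 8 unchanged genes. The simulated noise was independent between arrays and had the spread of the control arrays in both groups. These rates may therefore not hold for the real arrays. The genes, lists and motifs were chosen with earlier results of these data known. Named genes are the 41, list members with the greatest differences, defining markers, and 10 genes by excess and 5 by likeness to Gpnmb. The number of arrays limits the precision, and p-values reflect no more than sample-to-sample spread, possibly technical. Alternatives were repeated normalization, centring, a filter on dim genes, row averaging, other limma settings, other references and limits, and leaving out each array. Figures were drawn with matplotlib 3.10.9.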

Additional observations from a re-analysis of the deposited data

How the results depend on the processing

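The 2 genes called without Dnmt3b-KO replicate 3 (Fcgr4 and Ly6c2) became 1 with a variance trend and robust fitting, 1 with the replicate number as a block, and 0 to 1 with 1 more array left out; if that was a Dnmt3b-KO array, the remaining one was taken to vary as controls do. Fcgr4 had adjusted p of 0.0011 to 0.061 and Ly6c2 of 0.025 to 0.21 over these alternatives, with no change of sign. Over 6 arrays the count of 0 became 1 with array weights, 0 with the replicate block, and 0 to 2 with 1 array left out, where the 2 come from leaving out Dnmt3b-KO replicate 3. Over all genes the block took the calls from 509 to 96 without Dnmt3b-KO replicate 3. In that fit control replicate 3 had no Dnmt3b-KO array of its number and did not enter the difference. The fall thus mixes the block with the loss of a control array. Deviations from the group means correlated at 0.13, 0.03 and 0.11 within the pairs of equal number. As Dnmt3b-KO replicate 3 stood apart from its group, these values cannot decide whether arrays were paired. The numbers were not taken as pairs.

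The 25 genes higher by more than 1 on Dnmt3b-KO replicate 3 stayed within 1.5 times under every alternative run. The 1 lower gene became 2 with the other 5 arrays or the 3 controls as reference, where Ly6c2 joined Vcam1, and 1 to 2 with 1 of replicates 1 and 2 left out, where Ms4a6c joined it without replicate 2. With genes below the median level removed, the counts became 1 for alternative activation, 4 for inflammatory activation, 0 for microglia and 0 for dendritic cells. With a limit of 1.5 they became 1 for alternative activation, 4 for inflammatory activation, 0 for microglia and 0 for neutrophils. Both settings count fewer genes by construction. On the strand of the gene alone, PU.1 letters were in 16.3% of windows of the set, against 7.54% of all. Genes near the background controls limit what these arrays can show.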
